A study of Homo sapiens with 44 samples.

Results

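Hyaluronan is a long, unbranched sugar polymer of the extracellular matrix. The genes described here are 10 genes of its synthesis, binding and breakdown, taken by symbol from the 40663 symbols of the count table: HAS1, HAS2, HAS3, TNFAIP6, VCAN, HAPLN1, CD44, CEMIP, HYAL1 and HYAL2. All 10 were listed in the table, and 5 of them (HAS2, TNFAIP6, VCAN, CD44 and CEMIP) had enough counts to be tested. They were measured by bulk RNA-seq in Ccd-18Co, a fibroblast line from human colon, in 11 groups of 4 replicates. Cells were left unstimulated or received 1 of 10 cytokines for 24 h: the interleukins IL-1β, IL-6, IL-22, IL-17A and IL-13, the interferons IFNγ and IFNα, TGF-β1, OSM (oncostatin M) or TNF. All 11 groups shared a starvation of 72 h in serum-free medium before stimulation. Per the labels the dose was 0.1 ng/ml for IL-1β and 10 ng/ml for the other cytokines, so IL-1β is compared with them at a lower dose. A figure legend of the study gives a still lower IL-1β dose for these cells, and which of the values is right could not be settled. The groups are 1 cell line, and nothing in the labels says that replicates were separate cultures, so the p-values measure only the spread between these libraries, which may be technical.

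As background, hyaluronan is made at the plasma membrane by the HAS synthases, which extrude the growing chain into the space around the cell. Outside the cell the chain is bound and organised by proteins such as versican (VCAN), a large aggregating proteoglycan, by link proteins such as HAPLN1, and by TSG-6 (TNFAIP6), which transfers the heavy chains of inter-α-inhibitor onto hyaluronan. CD44 is its main cell-surface receptor. CEMIP and the hyaluronidases break the polymer down, and in the gut wall hyaluronan-rich matrix is made largely by fibroblasts and muscle cells and accumulates in inflamed tissue.

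Total counts were between 742173 and 2213424 per library, with a median of 1480883, and 3 counts in a library were worth 1.39 to 3.85 CPM. CPM is the count of a gene divided by the library size after normalization, and the limit of 3 counts covers counting error only. All 9 fibroblast markers examined were above that limit in at least 1 library of every group, with DCN at 15675 CPM and COL1A1 at 10640 CPM on average in unstimulated cells. PDGFRB was low, at 5.08 CPM on average in unstimulated cells and 1.33 CPM in its lowest library of any group. EPCAM, CDH1, PECAM1, KDR, CD3E and SOX10 had at most 2 counts in any library, whereas KRT18 and VIL1 averaged 10.2 and 12.4 CPM in unstimulated cells. The summed level of 4 smooth muscle markers, most of it ACTA2, differed between groups, from 257 to 893 CPM in unstimulated cells, 791 to 1347 CPM after IL-13, 377 to 1231 CPM after TGF-β1, 88.2 to 168 CPM after IL-1β and 79.0 to 245 CPM after IFNγ. DES was at most 4 counts in any library. The part of these differences in the results below was not tested, and in bulk RNA fewer cells of a type and less RNA per cell cannot be told apart.

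Among the 5 tested genes, 21 of the 50 combinations of gene and cytokine passed (14 higher and 7 lower than in unstimulated cells, where 2.55% and 2.89% of all combinations were called; adjusted p under 0.05, edgeR quasi-likelihood test with Benjamini-Hochberg adjustment over 9513 genes). That is 42%, where 5.45% of all gene and cytokine combinations passed. The share is a description, since it covers only the 5 members with enough counts. They had 73 to 1092 counts in unstimulated libraries, where the median over all tested genes was 34. The members' share and that of all genes are therefore not compared at like counts. In 6 of the 21 the log2 fold change was also above 1.5 in size, TNFAIP6 for 5 cytokines and HAS2 for TGF-β1, where 1.94% of all combinations were. TNFAIP6 rose with most cytokines, HAS2 rose with 3 of them and fell with IL-13, CEMIP rose with 3 and fell with TGF-β1, and VCAN and CD44 moved by smaller amounts. All comparisons with unstimulated cells share the same 4 control libraries, so they are not independent of each other.

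The number of the 5 tested genes that passed was 5 for TGF-β1 (5.69% of all tested genes passed), 4 for TNF (11.5%), 3 for IL-1β (7.38%) and 3 for IL-13 (3.93%). Both interferons had 2 genes pass (IFNα 9.85%, IFNγ 10.6% of all tested genes), and IL-17A (1.52%) and OSM (3.96%) had 1 each. For IL-6 and IL-22 it was 0 by edgeR, where 0.0105% and 0% of all tested genes passed. By DESeq2's Wald test the number that passed was also 0 for both. At an unadjusted edgeR p under 0.05 there were 0 of the 5 genes for IL-6 and 1 (CD44) for IL-22. Of all 9513 tested genes, 233 for IL-6 and 1037 for IL-22 were under that unadjusted p. Libraries did not overlap the unstimulated ones for 5 genes after TGF-β1 (9.28% of all tested genes), 4 after TNF (14.1%), 3 after IL-1β (12.8%) and 3 after IL-13 (9.82%). They did not overlap for 2 genes after IFNα (15%), 2 after IFNγ (11.9%) and 2 after OSM (10.4%), and for 0 after IL-17A (7.06%), IL-22 (4.9%) and IL-6 (2.18%).

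**Figure D1:**
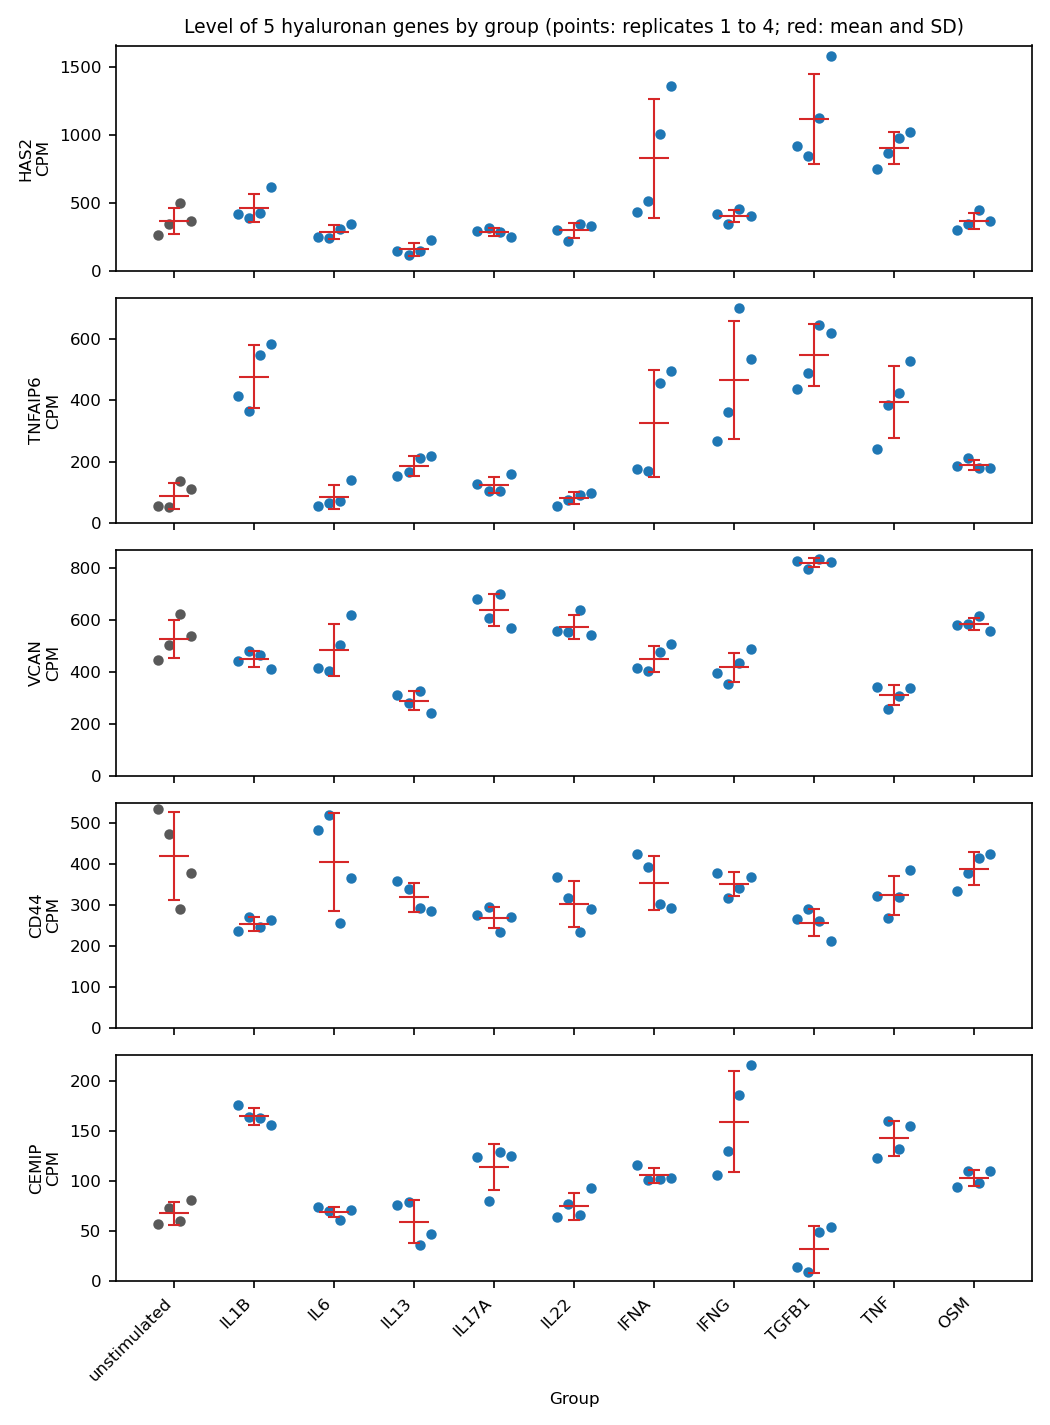
Level in CPM (linear axes from 0) of HAS2, TNFAIP6, VCAN, CD44 and CEMIP in the 11 groups. Points are the 4 replicates, grey for unstimulated cells, and the red bars are the mean and SD; HAS2 lay highest after TGF-β1, TNF and IFNα, and CEMIP lowest after TGF-β1.

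HAS2, one of the 3 synthases, lies on chromosome 8 (121612116 to 121641440, minus strand, GRCh38, GENCODE release 44). It overlaps the antisense RNA HAS2-AS1, which had 277 counts over all libraries against 31288 for HAS2. The default settings of kallisto, which the authors used, take no account of strand, so reads that both genes could give cannot be told apart. HAS2 was at 265, 348, 497 and 370 CPM in the 4 unstimulated libraries.

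After TGF-β1, HAS2 was at 921, 842, 1126 and 1584 CPM. All 4 libraries lay above all unstimulated ones, and the log2 fold change was 1.60 ± 0.25 (SE, n = 4 per group; adjusted p = 1.44e-05, edgeR), where 5.69% of tested genes passed for TGF-β1. TNF gave 751, 868, 976 and 1022 CPM, again with no overlap, and a log2 fold change of 1.29 ± 0.24 (adjusted p = 0.000154, edgeR), with 11.5% of genes passing. IFNα gave 433, 513, 1005 and 1360 CPM. These libraries spread widely, and the lowest lay below the highest unstimulated library; the log2 fold change was 1.16 ± 0.24 (adjusted p = 0.000542, edgeR), with 9.85% of genes passing. Without IFNα replicate 4 it was 0.84, and HAS2 still passed (adjusted p = 0.0145, edgeR).

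IL-13 lowered HAS2. Its libraries were at 149, 118, 143 and 230 CPM, all below the unstimulated ones, and HAS2 fell by 1.21 ± 0.25 on the log2 scale (adjusted p = 0.0015, edgeR), where 3.93% of tested genes passed. For the other 6 cytokines HAS2 did not pass, with log2 fold changes from -0.36 to 0.32. In the order of mean levels, TGF-β1, TNF and IFNα were not distinguished from one another, and each differed from the 8 groups below. The 7 groups from IL-1β (462 CPM) to IL-6 (288 CPM), unstimulated cells among them, did not differ from their neighbours beyond their spread, and IL-13 (160 CPM) lay below all others (adjusted p = 0.045 against IL-6, edgeR).

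The other 2 synthases were barely counted. HAS1 had 1 count in all 44 libraries, in an OSM library. HAS3, on chromosome 16, had 82 counts in all, at most 8 in a library, and its sum over 4 libraries lay between 4 (IL-22, TNF) and 13 (IL-13), against 9 in unstimulated cells. Most HAS3 libraries were at or under 3 counts, and no difference was detectable at this depth. Per kilobase of the canonical transcript, unstimulated HAS2 was at 87.2 ± 22.7 CPM and HAS3 at 0.33 ± 0.18 (SD, n = 4).

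TNFAIP6, which encodes the secreted hyaluronan-binding protein TSG-6, lies on chromosome 2 (151357592 to 151380046, plus strand, GRCh38). It had the most changes of any member, and so its promoter is shown, the 250 bases before the start site (RefSeq, GRCh38.p14, chr2:151357342-151357591, plus strand). Capitals mark the only match to the AP-1 motif TGANTCA, searched on both strands.

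TNFAIP6: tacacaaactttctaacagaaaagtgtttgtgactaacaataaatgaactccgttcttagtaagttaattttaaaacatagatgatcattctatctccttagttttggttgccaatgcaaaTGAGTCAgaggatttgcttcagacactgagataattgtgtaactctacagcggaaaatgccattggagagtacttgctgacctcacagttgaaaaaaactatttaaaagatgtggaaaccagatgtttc

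The match lies 129 to 123 bases before the start, and 6.57% of 35116 promoters of this length hold the motif. The window is 34.4% GC, against a median of 58%, and 4.82% of promoters had a lower value. The STAT motif TTCNNNGAA, an IRF motif, TATAAA, the Sp1 motif GGGCGG and an NF-κB motif had no match in this window. A match describes the letters only.

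In unstimulated cells TNFAIP6 was at 56.8, 53.2, 138 and 111 CPM. After TGF-β1 the 4 libraries were at 437, 489, 645 and 619 CPM, and the log2 fold change was 2.61 ± 0.33 (adjusted p = 3.50e-07, edgeR). IL-1β gave 414, 367, 548 and 582 CPM and a log2 fold change of 2.42 ± 0.32 (adjusted p = 3.78e-07, edgeR), where 7.38% of genes passed. In both groups every library lay far above every unstimulated one.

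IFNγ gave 268, 363, 701 and 534 CPM and a log2 fold change of 2.38 ± 0.32 (adjusted p = 3.93e-07, edgeR), where 10.6% of genes passed. TNF gave 243, 385, 425 and 528 CPM and 2.14 ± 0.32 (adjusted p = 3.73e-06, edgeR). IFNα gave 176, 171, 458 and 494 CPM and 1.86 ± 0.32 (adjusted p = 2.97e-05, edgeR). None of these groups overlapped the unstimulated libraries, although within the IFNα group a pair of libraries lay well below the others.

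Smaller rises passed after IL-13 and OSM. IL-13 gave 153, 166, 211 and 218 CPM, a log2 fold change of 1.06 ± 0.32 (adjusted p = 0.0447, edgeR), and OSM gave 188, 214, 179 and 181 CPM, a log2 fold change of 1.09 ± 0.32 (adjusted p = 0.0373, edgeR; 3.96% of genes passed for OSM). Neither group overlapped the unstimulated libraries, but both calls lay close to the threshold and were lost in most fits with a library fewer. The IL-13 call was lost in 6 of 8 fits that left out 1 library (adjusted p up to 0.172) and the OSM call in 5 of 8 (adjusted p up to 0.165, edgeR), in each case including those without unstimulated replicate 1 and without unstimulated replicate 2. For IL-6, IL-17A and IL-22 the log2 fold changes were -0.08, 0.48 and -0.15 and did not pass. The 5 groups with the highest TNFAIP6, TGF-β1 to IFNα, did not differ from their neighbours in the order.

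VCAN lies on chromosome 5 (83471618 to 83582303, plus strand, GRCh38) and overlaps the antisense RNA VCAN-AS1 (558 counts against 32161). Its unstimulated libraries were at 447, 503, 623 and 540 CPM. After TGF-β1 they were at 830, 798, 838 and 823 CPM, all above, and VCAN rose by a log2 fold change of 0.64 ± 0.14 (adjusted p = 0.00187, edgeR). Fitted on only the 8 libraries of this comparison, the value was 0.66 and did not pass (adjusted p = 0.0586, edgeR). IL-13 gave 309, 280, 327 and 241 CPM and TNF 344, 258, 307 and 337 CPM, all below every unstimulated library. VCAN fell by 0.87 ± 0.14 on the log2 scale after IL-13 (adjusted p = 2.82e-05, edgeR) and by 0.76 ± 0.14 after TNF (adjusted p = 7.63e-05, edgeR). For the other 7 cytokines it did not pass, with log2 fold changes from -0.34 to 0.28. HAPLN1, the link protein that locks aggregating proteoglycans onto hyaluronan, had 1 count in all libraries, in a TGF-β1 library.

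CD44, the main receptor, lies on chromosome 11 (35138882 to 35232402, plus strand, GRCh38) and overlaps CD44-AS1 (110 counts against 21608). Its unstimulated libraries, at 535, 475, 291 and 378 CPM, spread more than those of most groups. IL-1β gave 236, 272, 246 and 265 CPM and TGF-β1 267, 290, 261 and 213 CPM, in both cases below every unstimulated library. CD44 fell by 0.72 ± 0.18 on the log2 scale after IL-1β (adjusted p = 0.0046, edgeR) and by 0.70 ± 0.18 after TGF-β1 (adjusted p = 0.0098, edgeR). Without unstimulated replicate 1 the TGF-β1 value was -0.57 (adjusted p = 0.0548, edgeR) and without unstimulated replicate 2 it was -0.63 (adjusted p = 0.056, edgeR), so that call rested on these libraries. It was also lost in a fit to only the 8 libraries compared (adjusted p = 0.122, edgeR).

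After IL-17A CD44 was at 276, 296, 235 and 272 CPM, which overlapped the unstimulated libraries, and it fell by 0.64 ± 0.18 (adjusted p = 0.0479, edgeR), where 1.52% of genes passed. The call was lost in 7 of the 8 fits that left out 1 library, with adjusted p up to 0.258, and with only the 8 libraries compared (adjusted p = 0.125, edgeR). For the other 7 cytokines the log2 fold changes lay between -0.47 and -0.05 and did not pass. Unstimulated CD44 was the highest group mean, so every log2 fold change was below 0.

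CEMIP, which is needed for hyaluronan depolymerization by fibroblasts, lies on chromosome 15 (80779343 to 80951776, plus strand, GRCh38). It overlaps MESD on the other strand, which had 13749 counts against 6467 for CEMIP, so its level is uncertain to the extent that reads were split between them. It was the member with opposite changes after TGF-β1 and after IL-1β, and its promoter is shown for contrast with that of TNFAIP6 (223 bases before the annotated start, RefSeq sequence, GRCh38.p14, chr15:80779120-80779342, plus strand). Capitals mark matches to the Sp1 motif GGGCGG on either strand.

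CEMIP: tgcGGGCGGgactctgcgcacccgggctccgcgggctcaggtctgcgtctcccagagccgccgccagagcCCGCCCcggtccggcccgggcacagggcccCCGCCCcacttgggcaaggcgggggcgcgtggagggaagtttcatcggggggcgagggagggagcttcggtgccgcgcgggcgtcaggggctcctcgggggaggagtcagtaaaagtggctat

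The window is 74.9% GC, against a median of 57.85%, and 89.4% of promoters had a lower value. It holds 3 matches. At least 1 match is held by 39.3% of promoters of this length, which is no baseline for 3. How many matches promoters of like GC hold was not examined. The AP-1, STAT, IRF, TATAAA and NF-κB motifs had no match in this window.

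CEMIP was at 56.8, 72.2, 59.1 and 80.6 CPM in unstimulated cells. IL-1β gave 176, 163, 163 and 156 CPM, a log2 fold change of 1.29 ± 0.27 (adjusted p = 0.000953, edgeR). IFNγ gave 105, 130, 186 and 215 CPM, a log2 fold change of 1.24 ± 0.28 (adjusted p = 0.00144, edgeR). TNF gave 123, 159, 131 and 155 CPM, a log2 fold change of 1.08 ± 0.28 (adjusted p = 0.00535, edgeR). In these 3 groups every library lay above all unstimulated ones. The same held for IFNα and OSM (log2 fold changes 0.65 and 0.61), which did not pass, although IFNα did in a fit to only the 8 libraries compared (0.65; adjusted p = 0.0369, edgeR).

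After TGF-β1 CEMIP was at 13.3, 8.51, 49.0 and 53.6 CPM. All 4 libraries lay below the unstimulated ones, but they fell into a lower and a higher pair, and CEMIP fell by 1.08 ± 0.30 on the log2 scale (adjusted p = 0.0192, edgeR). The call was lost without TGF-β1 replicate 1 (-0.81, adjusted p = 0.129), without TGF-β1 replicate 2 (-0.79, adjusted p = 0.111), without unstimulated replicate 2 (-1.04, adjusted p = 0.0587) and without unstimulated replicate 4 (-0.98, adjusted p = 0.0706, edgeR). It was also lost with only the 8 libraries compared (-1.08, adjusted p = 0.225, edgeR). TGF-β1 was the lowest group for CEMIP, and all 5 tested genes passed for it: HAS2, TNFAIP6 and VCAN rose and CD44 and CEMIP fell. Without unstimulated replicate 2, 3 of the 5 passed, and with only the 8 libraries compared, 2 did (HAS2 and TNFAIP6).

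The hyaluronidases were close to the counting limit. HYAL1 had 8 counts in all, at most 1 in a library. HYAL2, which overlaps TUSC2 on the same strand, had 156 counts, with sums per group between 6 (TGF-β1) and 24 (IFNγ), of which 17 came from IFNγ replicate 1, against 9 in unstimulated cells. Neither was tested.

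**Figure D2:**
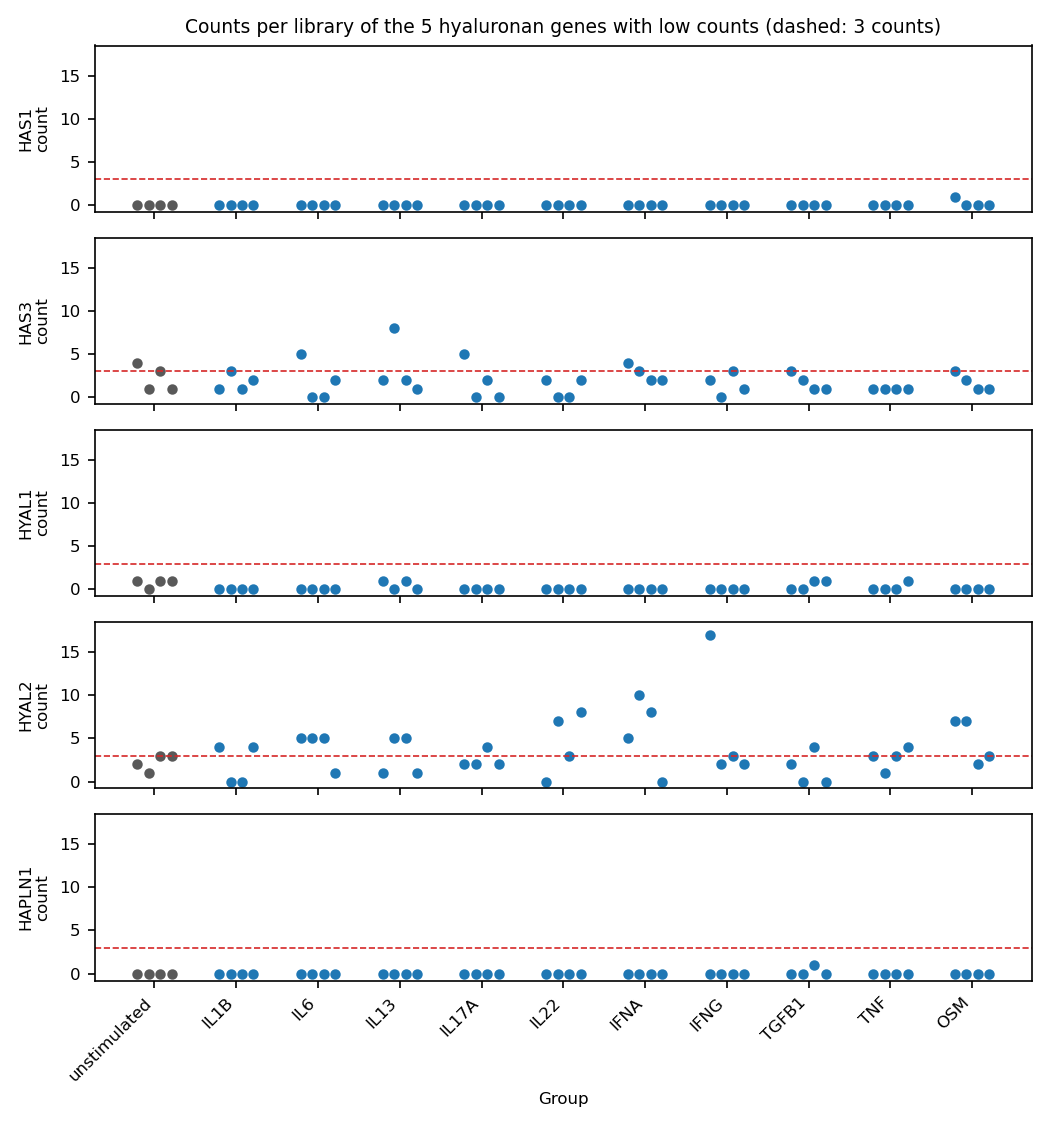
Counts per library of HAS1, HAS3, HYAL1, HYAL2 and HAPLN1 in the 11 groups, with the dashed line at 3 counts. Points are replicates; the highest value is 17 counts, HYAL2 in IFNγ replicate 1.

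**Figure D3:**
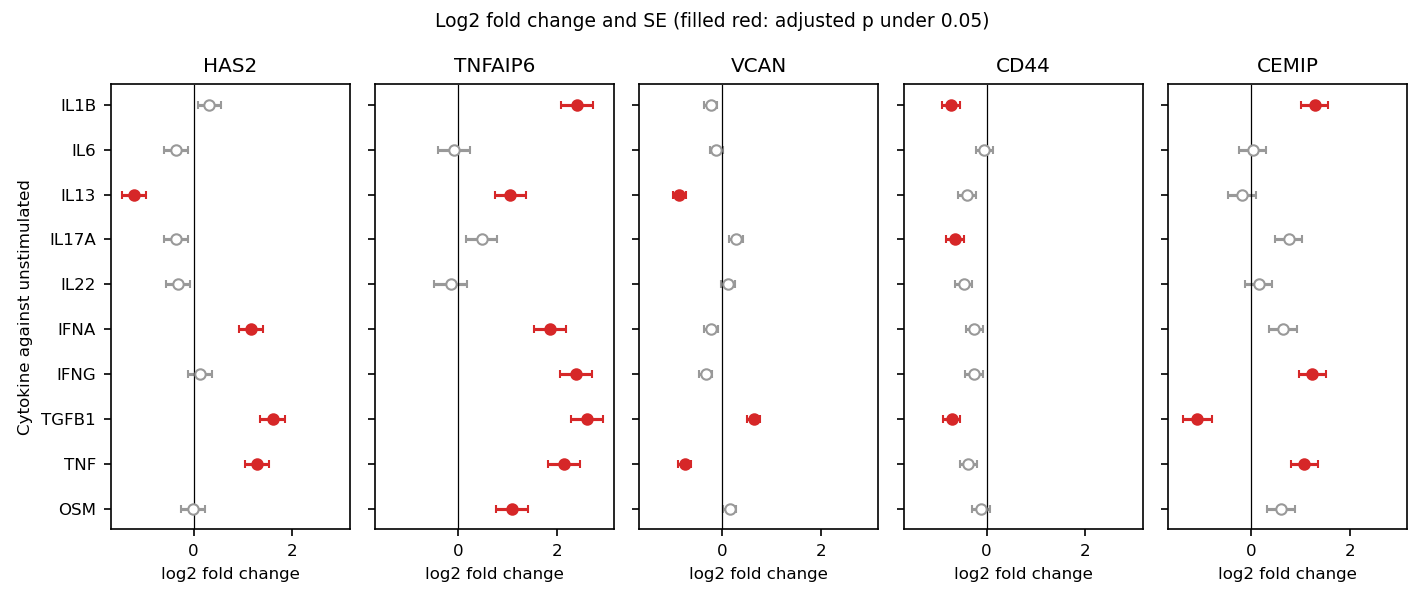
Log2 fold change of each tested gene for each cytokine against unstimulated cells, with its standard error. Filled red points passed at an adjusted p under 0.05 (21 of 50).

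Because a call for 1 cytokine and not for another does not show a difference, 3 pairs of cytokines were compared directly. Against IL-1β, TNF gave higher HAS2 (log2 difference 0.97 ± 0.24; adjusted p = 0.0295, edgeR) and lower VCAN (-0.53 ± 0.14; adjusted p = 0.0373, edgeR), where 1.15% of genes passed; TNF and IL-1β were used at different doses. In both genes the libraries of the pair did not overlap (7.99% of all tested genes), but HAS2 lost its call in 5 of 8 fits without 1 library (adjusted p up to 0.144) and VCAN in 7 of 8 (adjusted p up to 0.167, edgeR). VCAN was also lost with only the 8 libraries compared (adjusted p = 0.0847, edgeR). TNFAIP6, CD44 and CEMIP did not pass, with log2 differences of -0.27 (95% interval -0.88 to 0.34), 0.35 (-0.0045 to 0.70) and -0.21 (-0.75 to 0.33).

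IFNα gave higher HAS2 than IFNγ (log2 difference 1.03 ± 0.24; adjusted p = 0.00318, edgeR), where 9.39% of genes passed. The libraries overlapped (12.8% of all tested genes did not), and without IFNα replicate 4 the difference was 0.69 (adjusted p = 0.0674, edgeR). With only the 8 libraries compared it was 1.02 and did not pass (adjusted p = 0.0726, edgeR). The other 4 genes did not pass, with log2 differences from -0.60 (CEMIP) to 0.11 (VCAN). IL-13 and TGF-β1 differed most. IL-13 was lower in HAS2 (-2.81 ± 0.26; adjusted p = 2.74e-11, edgeR), TNFAIP6 (-1.55 ± 0.31; adjusted p = 0.000366) and VCAN (-1.505 ± 0.14; adjusted p = 2.78e-11), with no overlap between libraries, where 12.4% of genes passed and 14.6% did not overlap. CEMIP was higher after IL-13 (0.90 ± 0.30; adjusted p = 0.0398, edgeR), but the libraries overlapped and the call was lost in 4 of 8 fits without 1 library (adjusted p up to 0.207) and with only the 8 libraries compared (adjusted p = 0.257, edgeR).

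Synthase and depolymerization genes were also set against each other within each library. This ratio was chosen after the values were seen. HAS2 counts were 4.66, 4.82, 8.42 and 4.58 times the CEMIP counts in unstimulated cells. They were 69.5, 99.0, 23.0 and 29.6 times after TGF-β1, with no overlap and a mean log2 difference of 3.07. The CEMIP counts in these TGF-β1 libraries were 17, 8, 54 and 73, so the largest ratios rest on few counts. The ratio was lower by 0.97, 1.08 and 1.04 on the log2 scale after IL-1β, IL-17A and IFNγ, again with no overlap. For each of these 4 the exact permutation p was 0.0286, the smallest that 4 against 4 libraries allow, and 0.0714 after adjustment over 10 cytokines, so none passed. With 4 libraries per group a single cytokine could not pass this adjustment however large its difference, so the test cannot decide the question. The ratio of counts is not per length and is compared only between groups.

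**Figure D4:**
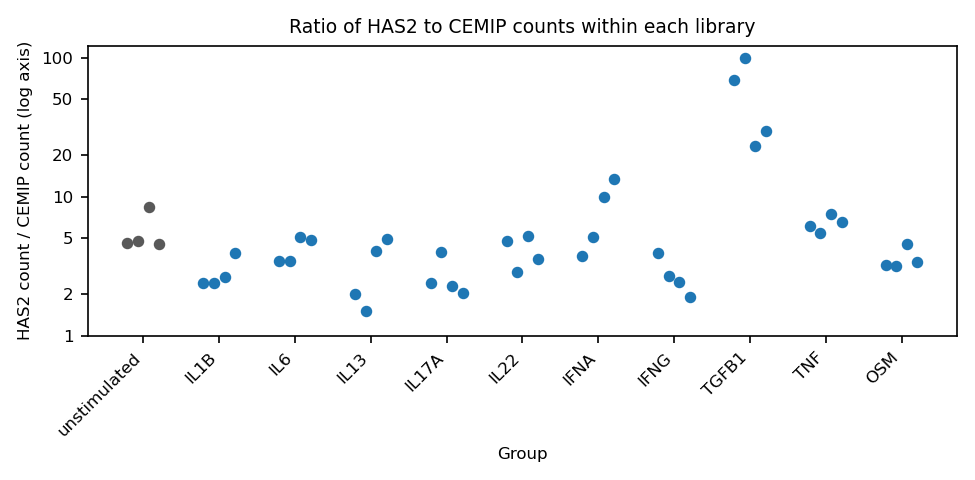
HAS2 count divided by CEMIP count in each library (log axis) for the 11 groups. Points are replicates; the TGF-β1 libraries lie between 23.0 and 99.0 and the unstimulated ones between 4.58 and 8.42.

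The other genes of hyaluronan metabolism were described from a list of 42, of which 22 had enough counts. Among them 25 of 220 combinations passed, 9 higher and 16 lower, which is 11.4% against 5.45% over all genes. The versican-cleaving ADAMTS proteases had the most calls, 12 in 40 combinations over 4 tested genes. ADAMTS5 was at 167, 205, 270 and 297 CPM in unstimulated cells. It rose after IL-1β (497, 599, 427 and 414 CPM; log2 fold change 1.05 ± 0.22; adjusted p = 0.000908, edgeR) and IL-17A (1.09; adjusted p = 0.00367) and fell after IL-13 (-1.84; adjusted p = 5.16e-07), OSM (-1.84; adjusted p = 3.40e-07) and IFNγ (-0.85; adjusted p = 0.00919).

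ADAMTS1 was at 232, 288, 248 and 210 CPM in unstimulated cells and at 43.7, 58.5, 57.2 and 58.7 CPM after TGF-β1, where it fell by 2.17 ± 0.20 on the log2 scale (adjusted p = 3.09e-10, edgeR). It also fell after TNF (-1.18; adjusted p = 8.52e-06) and IL-1β (-0.75; adjusted p = 0.0044). ADAMTS9 was at 5.83 to 27.3 CPM in unstimulated cells and at 0 to 2.13 CPM after TGF-β1, where it passed (adjusted p = 0.00345, edgeR). ADAMTS4 was low in all groups, with a mean of 3.60 CPM in unstimulated cells, and passed as higher after IFNα, IFNγ and TNF.

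Of the linkers between CD44 and actin, EZR (ezrin) was lower after IL-1β (21.0 against 91.2 CPM on average; adjusted p = 0.000605, edgeR), IFNγ, TGF-β1 and TNF. MSN and RDX did not pass for any cytokine. Among enzymes of the precursor sugars, UGDH, which makes UDP-glucuronic acid, rose after IL-13 (log2 fold change 0.73 ± 0.16; adjusted p = 0.00288, edgeR), the cytokine after which HAS2 fell, and was lower after IL-17A (-0.64; adjusted p = 0.0247). UGP2, which makes UDP-glucose, was lower after IFNα and IFNγ. Among genes listed as breakdown enzymes, CEMIP2 rose after TGF-β1, where CEMIP fell (28.6 to 68.2 CPM on average, log2 fold change 1.25 ± 0.31, adjusted p = 0.00833, edgeR). What the CEMIP2 product does in these cells was not measured. The receptor gene HMMR, also a gene of dividing cells, was lower after IL-13 and IFNα. HAS2-AS1 had a log2 fold change of 1.70 after TGF-β1 that did not pass (adjusted p = 0.187, edgeR).

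Several of these calls were lost when 1 library was left out, and without unstimulated replicate 2 the number of combinations was 16 in place of 25. The EZR call for TNF was lost in 8 of 8 such fits (adjusted p up to 0.103), that for TGF-β1 in 6 (up to 0.138) and that for IFNγ in 5 (up to 0.128, edgeR). ADAMTS4 lost its call for TNF in 6 of 8 fits (adjusted p up to 0.14), for IFNγ in 5 (up to 0.13) and for IFNα in 3 (up to 0.149, edgeR), the latter without IFNα replicate 4, unstimulated replicate 1 or unstimulated replicate 2. UGP2 for IFNγ was lost in 6 of 8 fits (adjusted p up to 0.244) and UGDH for IL-17A in 6 of 8 (up to 0.182, edgeR). ADAMTS5 for IFNγ was lost without IFNγ replicate 3 (adjusted p = 0.0704) and without unstimulated replicate 4 (0.0627, edgeR). CEMIP2 for TGF-β1 was lost in 1 such fit, without TGF-β1 replicate 1 (adjusted p = 0.0632, edgeR). HMMR for IL-13 was lost in 1, without IL-13 replicate 3 (adjusted p = 0.0826), and UGP2 for IFNα in 1, without IFNα replicate 4 (0.0689, edgeR). With only the 8 libraries compared, the calls of ADAMTS4 for all 3 cytokines, ADAMTS5 and UGP2 for IFNγ, EZR for TGF-β1 and UGDH for IL-17A were lost (adjusted p 0.0608 to 0.284, edgeR). With all genes of any count kept, UGP2 was lost for IFNα (adjusted p = 0.085) and IFNγ (0.261, edgeR). So were UGDH for IL-17A (adjusted p = 0.104) and ADAMTS4 for IFNγ (0.0877) and TNF (0.102, edgeR). With DESeq2 size factors, EZR for TNF (adjusted p = 0.0512) and UGP2 for IFNγ (0.0636, edgeR) were lost. UGP2 for IFNγ was also lost by DESeq2's Wald test (adjusted p = 0.0592). The ADAMTS1 calls, the ADAMTS9 call and the other ADAMTS5 calls passed in every fit that left out 1 library.

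**Figure D5:**
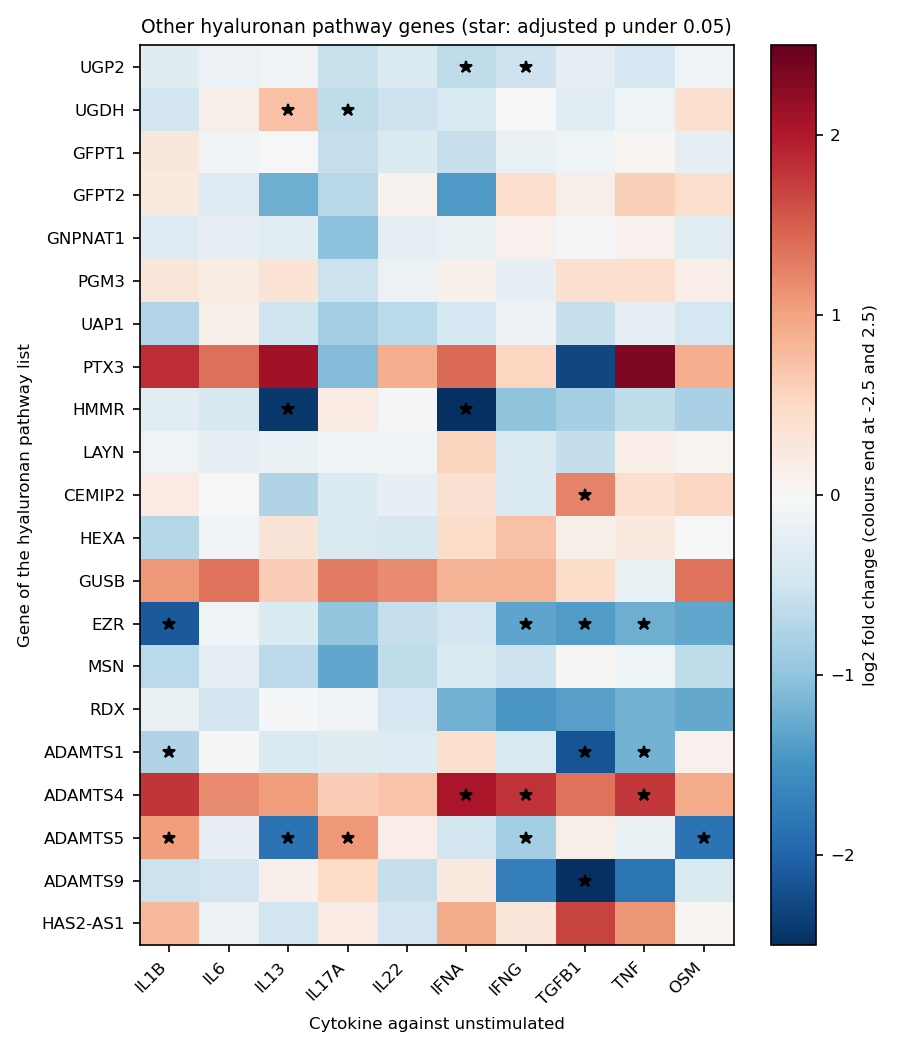
Log2 fold change of tested genes of the hyaluronan pathway list (rows) for each cytokine against unstimulated cells (columns; colours end at -2.5 and 2.5). Stars mark combinations with an adjusted p under 0.05, and the row of ADAMTS5 holds the most of them.

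The members did not share 1 pattern across the 11 groups. Over the group means of log2 CPM, Pearson's r was 0.65 between HAS2 and TNFAIP6, and between -0.45 and 0.25 for the other 9 pairs of tested members. The 11 points are group means of libraries of 1 cell line, and r is given as a description. Among 9503 tested genes outside the list, the closest patterns to HAS2 were those of DUSP1 (r = 0.93), TSC22D1 (0.93) and URGCP (0.92). For TNFAIP6 they were ZNF92 (0.92), OSBP (0.92) and GALK2 (0.91), for VCAN FKBP7 (0.93), SUMF1 (0.88) and GSE1 (0.87), for CD44 NUBPL (0.94), ZNF569 (0.89) and SLF2 (0.86), and for CEMIP TNFAIP2 (0.89), PSMC1P1 (0.88) and KLF5 (0.88), all over 11 groups. Several of these genes were at a few CPM only, such as URGCP and KLF5, and PSMC1P1 is a pseudogene whose reads are uncertain. NUBPL was also low, with group means from 4.12 CPM (IL-1β) to 9.37 CPM (OSM). These genes were picked as the highest of 9503, so a high r alone is no evidence of a relation, and no baseline was computed. By Spearman correlation over the same group means, TSC22D1, GALK2, NUBPL and TNFAIP2 held rank 1 for their member. Others fell lower, such as DUSP1 at rank 13, ZNF569 at 26, URGCP at 34 and KLF5 at 60.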

How the data were processed

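RNA-seq of Ccd-18Co cells in 44 libraries was quantified by the authors with kallisto (version 0.48.0), after read checks with FastQC (version 0.11.9) and MultiQC (version 1.14), per the submitters' processing notes, which also name the build hg38. The deposited values are estimated counts per gene symbol without any depth scaling; 5.77% are fractional. The quantification used default settings, which take no account of strand. The transcriptome release is not given in the sources used here.

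From these, rounded to whole numbers, edgeR (version 4.0.16; R version 4.3.3) was used: filterByExpr with 11 groups kept 9513 genes, TMM factors scaled the library sizes, and a single quasi-likelihood model held all libraries. Benjamini-Hochberg adjustment was done per contrast, and a gene passed at an adjusted p under 0.05. The contrasts were the 10 cytokines against no stimulation and 3 pairs of cytokines. DESeq2 (version 1.42.0) was an alternative. Counts are estimates, and a gene that overlaps another can share its reads. Positions come from GENCODE release 44, to which 99.23% of symbols matched, and promoters from RefSeq (GRCh38.p14), matched for 9 of 10 members.

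The 10 members, the list of 42 other pathway genes and the markers were chosen with earlier results of these data known, so calls on them are not independent evidence. Named genes were the members, list genes that passed for at least 1 cytokine, and the 3 genes closest in pattern to each tested member by Pearson correlation (mean log2 CPM of at least 1). Of the list genes, 1 is counted in the totals but its values are not reported here.

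Of the 66 pairs of replicates none was identical, and chi-square per degree of freedom was at least 3.17. The code was tested on simulated data for TNF against unstimulated cells over 9241 genes, with 200 genes changed: edgeR recovered 63 of 93 changed by a log2 fold of 1.5 and 86 of 107 changed by 2, with 5 false calls. A first criterion asked for more than 150 recovered, and 149 were; it was arbitrary and was replaced, after that result was seen, by limits on bias and on the share of false calls. A gene that did not pass is not shown to be unchanged.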

Additional observations from a re-analysis of the deposited data

Results flagged for a closer look

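In 3 of the 55 sets of 4 replicates of the tested genes, 1 library lay far from the other 3 for the range of the set. Chance alone flags about 1 set in 20, or 2.75 of 55, so this number is near what chance gives. VCAN in IL-22 replicate 3 was at 641 CPM, with the others at 544 to 558 CPM. CEMIP in IL-17A replicate 2 was at 79.6 CPM, with the others at 123 to 128 CPM. CEMIP in IFNα replicate 1 was at 116 CPM, with the others at 101 to 102 CPM.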

How the results depend on the processing

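Of the 50 combinations of member and cytokine, 45 to 50 kept their direction and side of the threshold under each of 6 alternatives (DESeq2 size factors, DESeq2's Wald test, no filter, a stricter filter of 10 counts in 4 libraries, a fit to just the 8 libraries of the contrast, and the replicate block). The number of genes that passed for IL-17A was 0 in place of 1 under DESeq2 size factors, without a filter, with at least 10 counts in 4 libraries and with only the 8 libraries. With only the 8 libraries it was 2 in place of 5 for TGF-β1 (VCAN, CD44 and CEMIP lost), 1 in place of 2 for TNF against IL-1β (VCAN lost), 0 in place of 1 for IFNα against IFNγ (HAS2 lost), 3 in place of 4 for IL-13 against TGF-β1 (CEMIP lost) and 3 in place of 2 for IFNα (CEMIP gained). Without a filter it was 1 for TNF against IL-1β. With a log2 fold change above 1.5 required as well, 1 gene remained for IL-1β, IFNα, IFNγ and TNF, 2 for TGF-β1, 0 for IL-13, IL-17A, OSM, TNF against IL-1β and IFNα against IFNγ, and 10 of 25 combinations of the other pathway genes. With 1 library left out, the numbers were 3 for IL-1β, 0 for IL-6 and IL-22, 2 to 3 for IL-13, 0 to 1 for IL-17A, OSM and IFNα against IFNγ, 2 for IFNα and IFNγ, 3 to 5 for TGF-β1, 4 for TNF, 0 to 2 for TNF against IL-1β, 3 to 4 for IL-13 against TGF-β1 and 16 to 27 for the pathway list. Per kilobase of the longest transcript, HYAL2 in unstimulated cells was at 0.36 in place of 0.78 CPM. The cause of these changes was not tested.

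Replicate numbers are shared by the groups, and nothing in the labels ties them to a shared batch. They were not taken as pairs, since in 0 of 10 cytokines did every pair of the same number correlate above 0.1. That rule does not show that libraries of the same number are independent of each other. Some deviations were shared by number: 22 of 44 libraries correlated best with their own number, where 11 would if the numbers meant nothing. The mean r was 0.024 for the same number and -0.0077 for other numbers. For TNFAIP6, replicates 1 and 2 both lay below replicates 3 and 4 in every group except IL-17A and OSM. HAS2 showed the same split in every group except IL-13, IL-17A and IFNγ, and CEMIP showed it after TGF-β1, IFNγ and IL-17A. CD44 showed the reverse, replicates 1 and 2 above 3 and 4, in unstimulated cells and after IL-6, IL-13, IL-17A, IL-22, IFNα and TGF-β1. The cause of these splits was not tested. With the replicate block, the members' calls were as in the fit without it, 30 in place of 25 pathway combinations passed, and CD44 in IFNα against IFNγ was at -0.0059.

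Sign changes occurred in log2 fold changes near 0 that did not pass. HAS2 for OSM was at 0.0122 with DESeq2 size factors, 0.0120 with the Wald test and 0.0016 with the stricter filter. CD44 for IFNα against IFNγ was at -0.0124 and -0.0123 with these DESeq2 alternatives, -0.0028 without a filter and -0.00094 with 8 libraries. With 1 library left out, ranges crossed 0 for TNFAIP6 after IL-6 (-0.45 to 0.21) and IL-22 (-0.32 to 0.14), CD44 after IL-6 (-0.18 to 0.12), OSM (-0.23 to 0.026) and in IFNα against IFNγ (-0.11 to 0.096), CEMIP after IL-6 (-0.041 to 0.14) and IL-13 (-0.33 to 0.032), and HAS2 after OSM (-0.15 to 0.19) and IFNγ (-0.00088 to 0.33). The order of groups (4 of 50 neighbouring pairs differed) and the ratio of HAS2 to CEMIP were examined under alternatives chosen after seeing the data, and 3 to 5 neighbouring pairs then differed. At this depth HAS1, HAS3, HAPLN1, HYAL1 and HYAL2 could not be compared.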
